A study of Mus musculus with 11 samples.

Results

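Bcl2, Bcl2l1, Mcl1, Bcl2l11, Bax, Bak1, Bid, Bad, Bbc3 and Pmaip1, the core genes of the mitochondrial survival balance, were read in naive and memory CD8 T cells from mouse spleen. These 10 genes were picked by name from the BCL2 family, and each matched 1 row of the 52636 genes in the count table. The naive group held 3 libraries of CD44lo CD8 T cells. Memory cells bound a tetramer of the LCMV nucleoprotein peptide NP396 and were split by surface CD45RB into CD45RBhi (4 libraries) and CD45RBlo (4 libraries). All mice were C57BL/6. Memory cells were taken on days 42 to 45, in week 6, after 200000 pfu of LCMV Armstrong, an acute strain of lymphocytic choriomeningitis virus given into the peritoneum. The naive samples carry a time entry of 6 to 8 weeks whose meaning is not given, together with the same protocol text on infection, so it is unclear whether their donors were infected. The NP396-binding cells are 1 specificity of the response, sorted from bulk spleen. The labels do not say whether the libraries of a group came from separate mice, and the spread that the p-values rest on may therefore be technical.

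The BCL2 family decides whether the outer mitochondrial membrane stays closed. Bcl2, Bcl2l1 (BCL-XL) and Mcl1 encode pro-survival proteins that hold the pore-forming effectors Bax and Bak1 in check. Bcl2l11 (BIM), Bid, Bad, Bbc3 (PUMA) and Pmaip1 (NOXA) encode BH3-only proteins, which bind the pro-survival proteins or the effectors and favour pore formation. Once the pore opens, cytochrome c leaves the mitochondrion and binds APAF1, and caspase 9 is activated. In CD8 T cells, BCL2 downstream of interleukin 7 and interleukin 15 and its partner BIM are textbook regulators of naive and memory cell survival. Among these pro-survival members NOXA binds MCL1 selectively, whereas BIM and PUMA bind all of them.

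The libraries held 18024793 to 23151297 counts each, so that 3 counts corresponded to 0.130 to 0.166 CPM (counts relative to the library's total, scaled by the trimmed mean of M-values, TMM). CD8 T cell markers summed to between 6780 and 8380 CPM over all 11 libraries, and the naive and memory marker lists moved as the labels say, with all 4 naive markers lower and all 5 memory markers higher in both memory groups. Summed markers of other blood cells were not the same in all groups. Erythroid and platelet markers summed to 241 to 529 CPM in naive libraries, to 0.304 to 2.09 CPM in CD45RBhi and to 0.581 to 25.3 CPM in CD45RBlo, and all 8 tested of 10 were lower in both memory groups (Ppbp was at 0 in every memory library). B cell markers, mostly Ighm, summed to 1140 to 1290, 193 to 499 and 191 to 436 CPM, with Pax5 at 0 in every memory library. Of 9 tested B cell markers, 7 were lower in CD45RBhi and 8 in CD45RBlo, and 1 was higher in each. Dendritic cell markers summed to 3.47 to 5.07, 87.2 to 248 and 67.3 to 169 CPM, with 2 of 3 tested (Itgax and Xcr1) higher in both memory groups, Zbtb46 not called, and Siglech and Clec9a at 0 in every CD45RBhi and Siglech and Flt3 in every CD45RBlo library. NK cell markers summed to 40.1 to 48.9, 299 to 500 and 335 to 496 CPM, with 3 of 4 tested higher in both memory groups and Fcer1g not called. Ncr1, also on that list, had 0 to 2 counts per library in each group and was not tested. The sums of macrophage, monocyte and neutrophil markers overlapped (32.9 to 55.2, 34.9 to 41.8 and 30.9 to 46.3 CPM), but 5 of 7 tested were lower in both memory groups, such as Lyz2 (log2 difference -5.07 and -4.07), and Cd68 (3.12 and 2.91) and Itgam (2.87 and 3.17) were higher. Whether a marker's RNA came from other cells or from the sorted CD8 T cells themselves was not tested. The part of other cells in the differences from naive libraries given below was not tested either. As in any bulk sample, fewer cells of a type and less RNA per cell cannot be told apart.

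Promoters of some of the members are shown to place the genes in the genome and to show which known regulatory letters lie there. Where a gene had several start sites, 1 window is printed. The printed windows are a choice and include those with a forkhead core, so the counts over all windows below should be used instead. Each line is the 250 bases before a RefSeq start site, read 5′ to 3′ on the gene's strand from the GRCm38.p6 table, in which 9 of the 10 members had an entry. Capitals mark a forkhead core (GTAAACA, the motif of FOXO factors) or an E-box (CACGTG, the motif of MYC and its partners), found on either strand.
Bcl2 promoter, chr1:106714291-106714540, minus strand: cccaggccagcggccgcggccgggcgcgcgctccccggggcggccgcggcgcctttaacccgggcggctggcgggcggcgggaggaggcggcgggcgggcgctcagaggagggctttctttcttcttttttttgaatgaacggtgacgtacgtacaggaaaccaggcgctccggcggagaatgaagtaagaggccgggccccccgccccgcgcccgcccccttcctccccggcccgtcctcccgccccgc
Bcl2l1 promoter, chr2:152831729-152831978, minus strand: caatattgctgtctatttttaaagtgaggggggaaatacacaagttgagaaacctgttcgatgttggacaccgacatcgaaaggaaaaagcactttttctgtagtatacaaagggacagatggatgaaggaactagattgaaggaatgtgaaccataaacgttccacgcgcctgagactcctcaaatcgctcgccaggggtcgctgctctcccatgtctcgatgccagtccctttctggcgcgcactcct
Bcl2l11 promoter, chr2:128125788-128126037, plus strand: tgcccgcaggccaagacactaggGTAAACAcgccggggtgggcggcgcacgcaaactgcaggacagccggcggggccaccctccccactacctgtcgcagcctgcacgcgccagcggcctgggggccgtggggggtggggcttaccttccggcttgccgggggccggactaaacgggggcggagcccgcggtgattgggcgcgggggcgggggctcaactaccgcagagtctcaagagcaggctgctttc
Bbc3 promoter, chr7:16310011-16310260, plus strand: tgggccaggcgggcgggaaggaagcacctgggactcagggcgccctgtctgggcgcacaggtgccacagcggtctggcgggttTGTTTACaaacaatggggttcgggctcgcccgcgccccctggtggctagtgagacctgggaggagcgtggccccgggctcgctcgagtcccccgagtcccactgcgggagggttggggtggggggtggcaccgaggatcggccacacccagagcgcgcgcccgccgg
Bax promoter, chr7:45466899-45467148, minus strand: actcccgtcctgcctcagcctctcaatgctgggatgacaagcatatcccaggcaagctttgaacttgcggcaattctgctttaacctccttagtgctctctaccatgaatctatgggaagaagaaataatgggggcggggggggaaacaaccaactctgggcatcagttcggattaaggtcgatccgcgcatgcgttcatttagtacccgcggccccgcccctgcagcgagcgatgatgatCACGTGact
The forkhead core lay 221 to 227 bases before the Bcl2l11 start and 161 to 167 bases before this start of Bbc3, and the E-box 4 to 9 bases before the Bax start. Over all 15 windows of the 9 members, the forkhead core was in 2, the E-box in 2, and a STAT palindrome (TTCNNNGAA) and a CRE (TGACGTCA) in 0. Among all 32851 windows of the table, 3.17% held the forkhead core, 6.02% the E-box, 7.02% the STAT palindrome and 1.55% the CRE. No window of a member held more than 1 match of these motifs. A GC box (GGGCGG), not capitalised above, was in 10 of the 15 windows and in 32.7% of all windows of the table, a difference that was not tested. A match is a description of letters, not of binding.

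Per kilobase of exon, Mcl1 was the most abundant member in each group. Its mean level stood at the 98th percentile of the 13735 tested genes in naive libraries, 97.2 in the CD45RBhi and 97.4 in the CD45RBlo group. Bax followed at percentiles 87.2, 89.6 and 90.2, and Bak1, the other effector, was near the floor of the table at percentiles 8.57, 11.5 and 14.1. Bcl2 lay at percentiles 81.5, 81.2 and 75.7. The members with the largest shift in rank were Bcl2l1, at percentile 45.4 in naive and 76.8 and 72.3 in CD45RBhi and CD45RBlo libraries, and Pmaip1, at 33.1 in naive and 71.1 and 76.7.

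**Figure D1:**
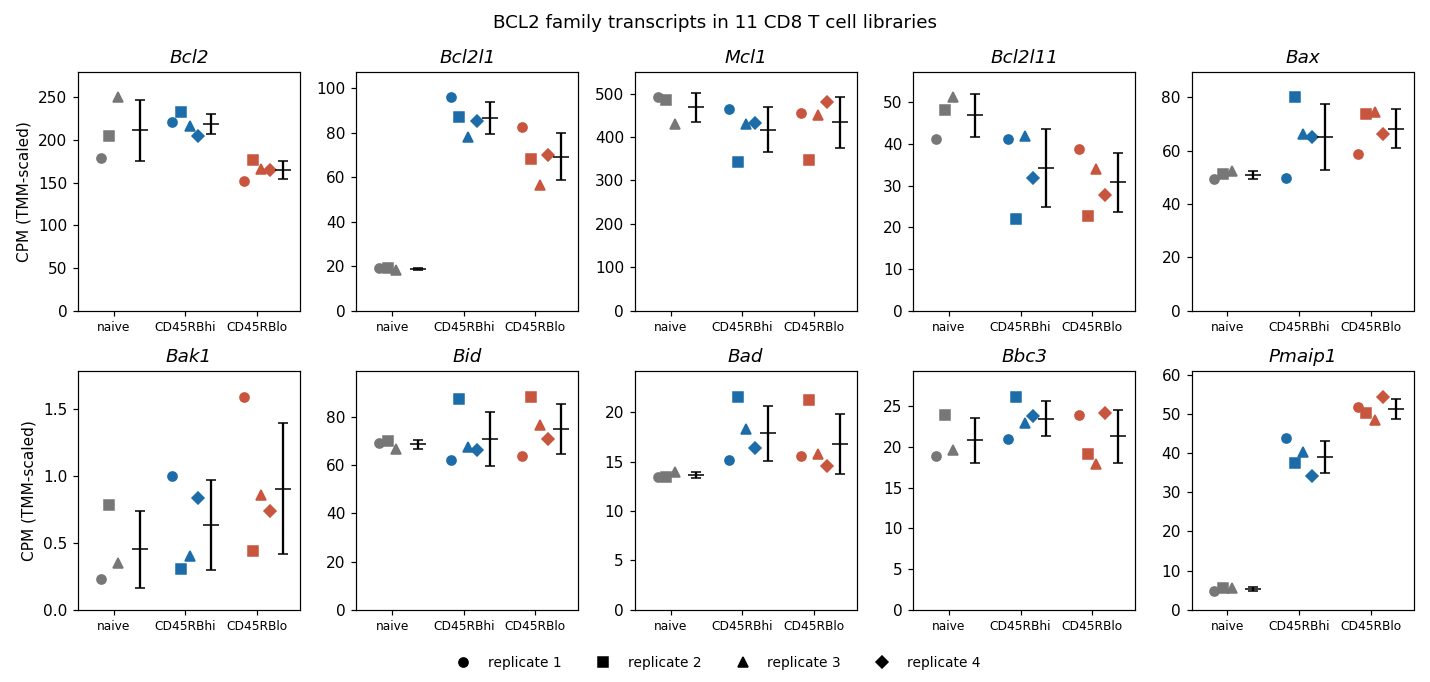
Level of each member (CPM, TMM-scaled, linear axes from 0) in every library, by group, with the group mean and SD as bars and the replicate number as the symbol (n = 3, 4 and 4). Bcl2l1 and Pmaip1 are higher in all 8 memory libraries than in any naive library, and Bcl2 is lower in every CD45RBlo library than in any other library.

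Among the 10 members, memory cells held more RNA than naive cells of 1 pro-survival gene, Bcl2l1, and of 1 BH3-only gene, Pmaip1. No other called member differed by as much as 2-fold. The pro-survival A1 genes, which were not members and also rose, are given further below. In CD45RBhi cells 2 of 10 members rose and 0 fell (edgeR quasi-likelihood test, Benjamini-Hochberg adjusted p below 0.05 over all genes), where 41.5% of all tested genes were called (22.3% higher and 19.1% lower). In CD45RBlo cells 3 rose (Bcl2l1, Bax and Pmaip1) and 2 fell (Bcl2 and Bcl2l11), where 42.2% of all tested genes were called (22.4% higher and 19.8% lower). The members' median log2 difference was 0.27 for CD45RBhi and 0.21 for CD45RBlo, against -0.01 over all tested genes in both. The memory libraries did not overlap with the naive ones for 3 members in CD45RBhi and 6 in CD45RBlo, while 47.4% and 49.6% of all tested genes did not overlap. These shares of called members are near or below the background, so the counts set the family apart in neither comparison. Both comparisons share the 3 naive libraries.

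Bcl2l1, which encodes BCL-XL (chr2:152780668-152831728, minus strand), gave the largest difference among the pro-survival members. It measured 18.9, 19.2 and 18.2 CPM in naive libraries, 95.8, 87.1, 78.1 and 85.2 in CD45RBhi libraries and 82.3, 68.3, 56.6 and 69.7 in CD45RBlo libraries. Every memory library was above every naive library, and the memory groups overlapped. The log2 difference from naive was 2.20 ± 0.129 (SE) in CD45RBhi cells, 4.61-fold (edgeR adjusted p = 3.26e-08), and 1.88 ± 0.127 in CD45RBlo cells, 3.68-fold (adjusted p = 1.13e-07). The summed erythroid and platelet markers were 241 to 529 CPM in these naive libraries and at most 25.3 CPM in a memory library.

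Bcl2 (chr1:106538178-106714274, minus strand) did not follow Bcl2l1. It measured 179, 205 and 250 CPM in naive libraries, 221, 233, 216 and 205 in CD45RBhi libraries and 152, 177, 166 and 165 in CD45RBlo libraries. The CD45RBlo libraries were the 4 lowest of the 11, and CD45RBhi libraries lay inside the naive range. CD45RBhi cells (219 ± 11.7 CPM, SD, n = 4) and naive cells (212 ± 36.1, n = 3) differed by 0.05 ± 0.105 on the log2 scale (adjusted p = 0.737), less than the spread between naive libraries. In CD45RBlo cells (165 ± 10, n = 4) Bcl2 fell by 0.36 ± 0.104 on the log2 scale (adjusted p = 0.0145). That call rested on naive replicate 3, the highest library, since without it the log2 difference was -0.22 (adjusted p = 0.0998).

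Mcl1, whose product is a short-lived partner of NOXA, gave no call in any comparison. It measured 491, 484 and 429 CPM in naive libraries, 464, 342, 429 and 431 in CD45RBhi libraries and 455, 346, 451 and 481 in CD45RBlo libraries. The ranges overlapped, and the lowest value in each memory group was its replicate 2. The log2 difference from naive was -0.17 ± 0.123 in CD45RBhi (adjusted p = 0.293) and -0.11 ± 0.123 in CD45RBlo cells (adjusted p = 0.5).

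Among the BH3-only genes, Pmaip1, which encodes NOXA (chromosome 18), had the largest difference of any member. It measured 4.66, 5.50 and 5.56 CPM in naive libraries, 43.8, 37.5, 40.3 and 34.2 in CD45RBhi libraries and 51.8, 50.2, 48.5 and 54.4 in CD45RBlo libraries. The 3 groups did not overlap, with naive lowest and CD45RBlo highest. Pmaip1 rose by 2.89 ± 0.125 on the log2 scale in CD45RBhi cells, 7.43-fold (edgeR adjusted p = 2.08e-09), and by 3.29 ± 0.127 in CD45RBlo cells, 9.78-fold (adjusted p = 6.49e-10).

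Bcl2l11, which encodes BIM (chr2:128126038-128162547, plus strand), went the other way. It measured 41.2, 48.3 and 51.2 CPM in naive libraries, 41.3, 22.0, 41.9 and 31.8 in CD45RBhi libraries and 38.8, 22.7, 33.9 and 27.8 in CD45RBlo libraries. All CD45RBlo libraries were below the naive ones, CD45RBhi libraries reached into the naive range, and replicate 2 was the lowest of each memory group. The log2 difference was -0.45 ± 0.219 in CD45RBhi cells (adjusted p = 0.115). In CD45RBlo cells Bcl2l11 fell by 0.61 ± 0.219 (adjusted p = 0.0402), a call that was lost when naive replicate 1, 2 or 3, CD45RBhi replicate 4, or CD45RBlo replicate 2, 3 or 4 was left out (log2 difference -0.69 to -0.49, adjusted p 0.0513 to 0.127).

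The other BH3-only genes gave no call against naive cells. Bad, which is held inactive by growth factor signalling, measured 13.7 ± 0.278 CPM in naive libraries, 17.9 ± 2.80 in CD45RBhi libraries and 16.8 ± 3.04 in CD45RBlo libraries, and both memory groups lay wholly above the naive one. Its log2 difference was 0.39 ± 0.16 (adjusted p = 0.0689) and 0.30 ± 0.16 (adjusted p = 0.152), and the first passed without CD45RBhi replicate 1 (0.46, adjusted p = 0.0426) or without CD45RBlo replicate 2 (0.39, adjusted p = 0.0367). Bbc3, the p53 target that encodes PUMA, measured 20.8 ± 2.74, 23.5 ± 2.15 and 21.3 ± 3.24 CPM (adjusted p = 0.351 and 0.867). Bid, which links death receptors to mitochondria, measured 68.7 ± 1.69, 70.9 ± 11.3 and 75.0 ± 10.4 CPM (adjusted p = 0.802 and 0.472). Bid shares 628 exonic bases with Bcl2l13, and Bad 524 with Gpr137, each on the opposite strand. Whether the counting used strand is not given, so reads from those bases cannot be told apart.

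Of the effectors, Bax made up nearly all of the RNA. It measured 49.3, 51.2 and 52.2 CPM in naive libraries, 49.8, 80.0, 66.2 and 65.1 in CD45RBhi libraries and 58.8, 73.8, 74.4 and 66.1 in CD45RBlo libraries. CD45RBlo libraries were all above the naive range, and in CD45RBhi replicate 1 alone fell inside it. Bax rose by 0.42 ± 0.141 on the log2 scale in CD45RBlo cells (adjusted p = 0.0281), and the difference in CD45RBhi cells was 0.36 ± 0.141 (adjusted p = 0.0574). The first call was lost without naive replicate 1, 2 or 3 or CD45RBlo replicate 2, 3 or 4 (0.38 to 0.44, adjusted p 0.0588 to 0.0861), and with scaling to library size alone (0.29, adjusted p = 0.144). The second passed without CD45RBhi replicate 1 (0.47, adjusted p = 0.00707) or CD45RBlo replicate 1 (0.36, adjusted p = 0.0499).

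Bak1 was counted too rarely for a comparison of this size, with 5 to 15 counts per naive library, 7 to 20 per CD45RBhi library and 9 to 28 per CD45RBlo library. Its mean was 0.45 ± 0.29 CPM in naive libraries, 0.635 ± 0.338 in CD45RBhi libraries and 0.903 ± 0.488 in CD45RBlo libraries, and the log2 differences from naive were 0.49 ± 0.607 (adjusted p = 0.55) and 1.00 ± 0.601 (adjusted p = 0.206). Bak1 also shares 437 exonic bases with Ggnbp1 on the opposite strand.

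**Figure D2:**
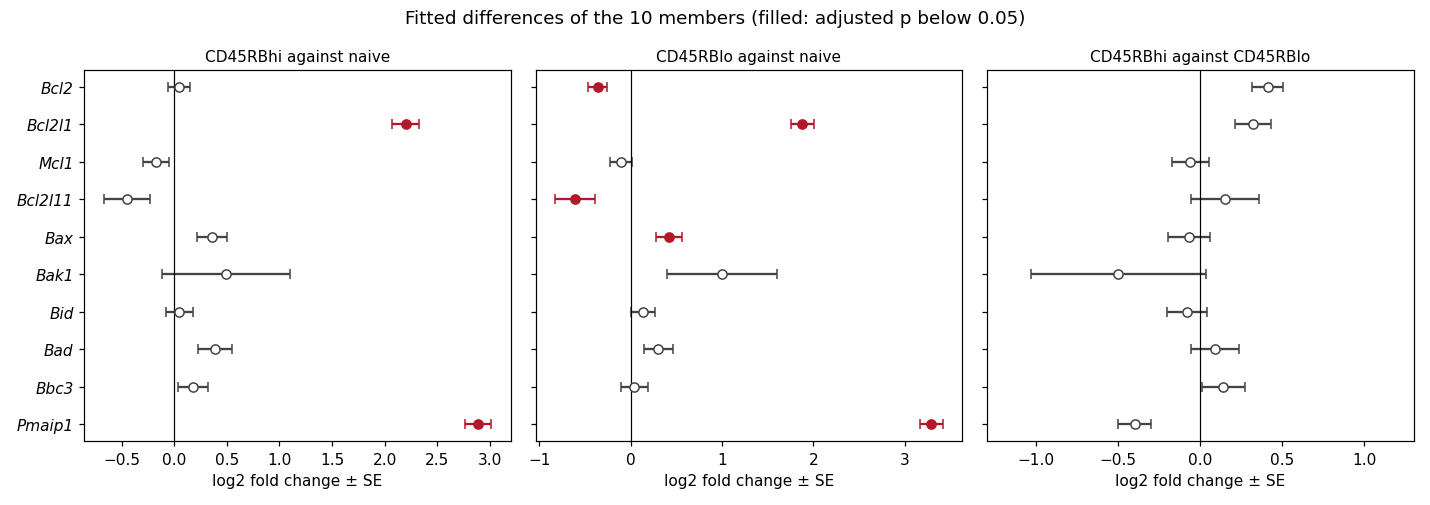
Fitted log2 difference of each member with its standard error in the 3 comparisons, where filled points have an adjusted p below 0.05 and each panel has its own axis. Bcl2l1 and Pmaip1 lie apart from the other members against naive cells (2.20 and 2.89 in CD45RBhi), and no point is filled between the memory groups, where Bcl2 is at 0.41 and Pmaip1 at -0.40.

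In each of the 4 same-numbered pairs of memory libraries, Bcl2 and Bcl2l1 were higher and Pmaip1 was lower in CD45RBhi than in CD45RBlo. No label ties these replicate numbers, and the pairing was taken from correlations in these data. In the fit without pairing, 0 of 10 members passed the adjusted threshold, where 0.124% of all tested genes were called (0.0801% higher and 0.0437% lower in CD45RBhi). At an unadjusted p below 0.05 there were 3 members (Bcl2, Bcl2l1 and Pmaip1), and 9% of all tested genes. DESeq2 called 2 members (Bcl2, adjusted p = 0.032, and Pmaip1, adjusted p = 0.0239), and 1.13% of the genes for which it gave an adjusted p. The groups did not overlap for 2 members, Bcl2 and Pmaip1, against 4.99% of all tested genes. With the replicate number as a block, for which same-numbered memory libraries deviated together, 2 members were higher and 1 lower in CD45RBhi, where 5.59% of all tested genes were called (2.52% higher and 3.08% lower).

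Bcl2 was 0.54, 0.40, 0.38 and 0.32 higher on the log2 scale in CD45RBhi replicates 1 to 4 than in the CD45RBlo library of the same number. The fitted log2 difference was 0.41 ± 0.0973 without the block (edgeR adjusted p = 0.205) and 0.41 ± 0.057 with it (adjusted p = 0.00206). For Bcl2l1 the pairs differed by 0.22, 0.35, 0.46 and 0.29, and the fit gave 0.32 ± 0.109 (adjusted p = 0.388) without and 0.33 ± 0.0672 (adjusted p = 0.0161) with the block. Both pro-survival genes were thus higher in 4 of 4 pairs, and the levels of Bcl2l1 overlapped only across pairs.

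Pmaip1 ran opposite, with pair differences of -0.24, -0.42, -0.27 and -0.67. The fit gave -0.40 ± 0.0999 without the block (adjusted p = 0.23) and -0.40 ± 0.086 with it (adjusted p = 0.0202). Of these 3 blocked calls, those of Bcl2l1 and Pmaip1 rested on single pairs. Without pair 3, Bcl2l1 had an adjusted p of 0.11 and Pmaip1 of 0.0811, leaving 1 member called, and without pair 4 Pmaip1 had an adjusted p of 0.0927 at a log2 difference of -0.31.

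The other 7 members gave no call between the memory groups, with or without the block. With the block, the log2 difference was -0.05 ± 0.0516 for Mcl1, 0.14 ± 0.0877 for Bcl2l11, -0.07 ± 0.0757 for Bax, 0.09 ± 0.106 for Bad and 0.15 ± 0.12 for Bbc3. Bid was lower in CD45RBhi in 4 of 4 pairs, but by -0.08 ± 0.0655 (adjusted p = 0.52). In all, 4 members had 1 direction in all 4 pairs, and 27.7% of all tested genes did. The difference for Bak1, -0.50 ± 0.405, had the widest error of the 10.

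**Figure D3:**
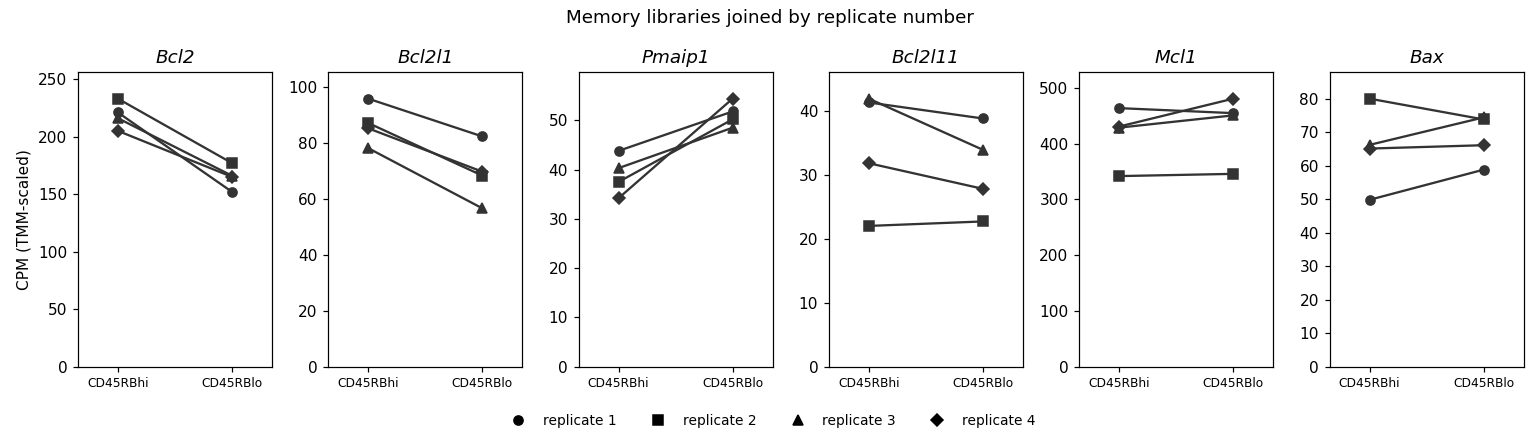
Levels (CPM, TMM-scaled, linear axes from 0) of 6 members in the 8 memory libraries, with a line joining the CD45RBhi and CD45RBlo libraries of the same replicate number. All 4 lines fall from CD45RBhi to CD45RBlo for Bcl2 and Bcl2l1 and rise for Pmaip1, while those of Bcl2l11, Mcl1 and Bax run in both directions.

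Several members deviated in the same replicate of both memory groups. Against the mean of the other 3 libraries of its group, replicate 2 was lower for Mcl1 (log2 deviation -0.37 in CD45RBhi and -0.42 in CD45RBlo) and Bcl2l11 (-0.78 and -0.54). It was higher for Bid (0.42 and 0.33), Bad (0.38 and 0.47) and Bax (0.42 and 0.16). In the same libraries the longest 25% of tested genes had a median deviation of -0.21 and -0.16, and the shortest 25% of 0.08 and 0.07. Replicate 1 deviated the other way, with -0.49 and -0.28 for Bax, 0.42 and 0.48 for Bcl2l11, and 0.17 and 0.10 for the longest genes. The part of this shift with gene length in the members' values was not tested. With both replicate 2 memory libraries left out, an alternative added after the data were seen, 2, 5 and 0 members were called in the 3 comparisons, the same counts as with them.

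Per kilobase of exon, the summed RNA of the 3 pro-survival members differed between groups by less than its SD, at 164 ± 6.32 CPM per kb in naive libraries, 165 ± 15.0 in the CD45RBhi and 160 ± 16.9 in the CD45RBlo group. Its makeup was not the same. Bcl2l1 held 2.5 ± 0.034% of the sum in naive libraries, 11.5 ± 1.21% in the CD45RBhi and 9.51 ± 1.62% in the CD45RBlo group. Mcl1 held 83.4 ± 2.99%, 73.8 ± 3.08% and 79.1 ± 2.99%, and Bcl2 14.1 ± 2.96%, 14.7 ± 2.02% and 11.4 ± 1.96%. The larger part was Mcl1 in every library. The pro-survival A1 genes are not part of this sum, so its flatness holds for the 3 members only. Per kilobase, Bcl2a1d averaged 1.22 for naive cells, against 20.4 (CD45RBhi) and 20.7 (CD45RBlo). Bcl2a1b averaged 2.6 against 11.6 and 12.2, and the rarely counted Bcl2a1a 0.217 against 0.282 and 0.304. A pro-survival sum with the A1 genes was not tested.

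The summed RNA of the 5 BH3-only members was 42.2 ± 1.87 CPM per kb in naive libraries, 56.5 ± 3.98 in the CD45RBhi and 60.3 ± 2.33 in the CD45RBlo group, and the memory libraries lay wholly above the naive ones. Pmaip1 held 4.54% of that sum in naive libraries, 25.3% in the CD45RBhi and 31.1% in the CD45RBlo group on average. Bid held 45.8%, 35.2% and 34.9%, Bbc3 23.1%, 19.6% and 16.7%, Bcl2l11 13.8%, 7.63% and 6.40%, and Bad 12.7%, 12.3% and 10.9%. The sum of the effectors, nearly all Bax, was 32.5 ± 0.991, 41.7 ± 7.69 and 43.7 ± 4.50 CPM per kb. Sums and shares of RNA say nothing of protein, which for MCL1 and NOXA is known to be set largely by degradation.

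**Figure D4:**
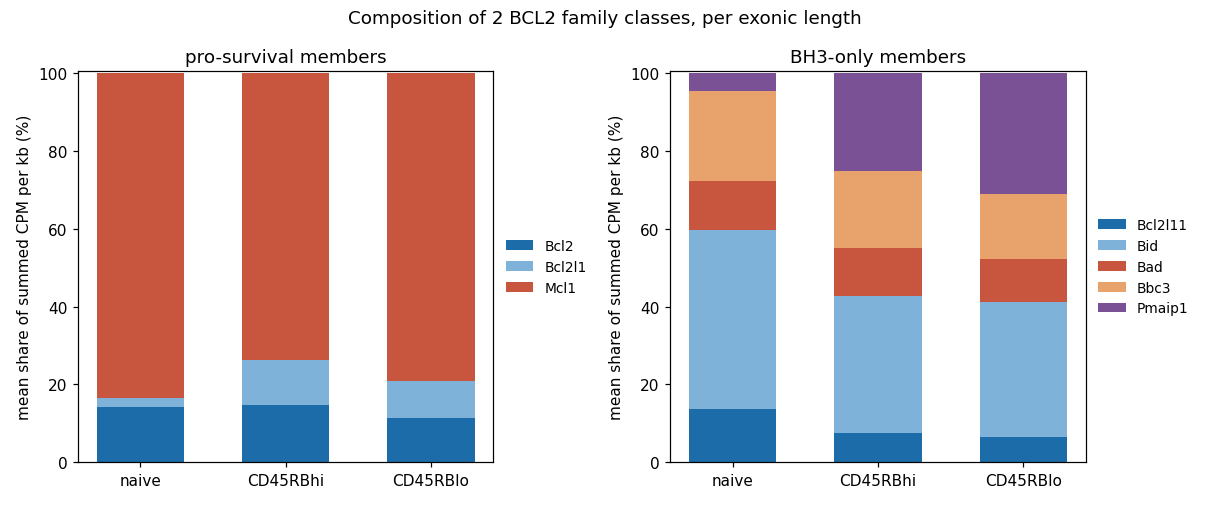
Mean share (%) of each gene in the summed level per kilobase of exon of the 3 pro-survival and the 5 BH3-only members, by group, without error bars (n = 3, 4 and 4). The Bcl2l1 share is 2.5% in naive and 11.5% in CD45RBhi libraries, and the Pmaip1 share is 4.54% in naive and 31.1% in CD45RBlo libraries.

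Ratios taken within a library set a pro-survival gene against a BH3-only or effector gene, on a log2 scale of level per kilobase. They are given as a description. Among the pro-survival members NOXA binds MCL1 selectively, so the ratios of Bcl2 and Bcl2l1 to Pmaip1 compare RNA levels, not binding partners. The pro-survival A1 genes Bcl2a1b and Bcl2a1d, which rose in memory cells, enter none of these ratios. Bcl2 to Pmaip1 was 3.52, 3.48 and 3.75 in naive, 0.59, 0.89, 0.68 and 0.84 in CD45RBhi and -0.19, 0.07, 0.03 and -0.15 in CD45RBlo libraries, so the 3 groups did not overlap. Bcl2l1 to Pmaip1 was 1.27, 1.06 and 0.96 in naive, 0.38, 0.47, 0.21 and 0.57 in CD45RBhi and -0.08, -0.30, -0.52 and -0.39 in CD45RBlo libraries. Here too the groups were separate. Per kilobase, Bcl2l1 was above Pmaip1 in every naive and CD45RBhi library and below it in every CD45RBlo library. The side of 0 depends on the exonic lengths used. In CPM, without division by length, Bcl2l1 was above Pmaip1 in every CD45RBlo library as well (82.3, 68.3, 56.6 and 69.7 against 51.8, 50.2, 48.5 and 54.4).

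Mcl1 to Pmaip1, the ratio of NOXA's target among the members to NOXA, averaged 6.16 ± 0.226 in naive libraries, 3.09 ± 0.191 in the CD45RBhi and 2.75 ± 0.194 in the CD45RBlo group, and the memory groups overlapped. Bcl2 to Bax averaged -0.50 ± 0.203, -0.77 ± 0.266 and -1.26 ± 0.0908, and each CD45RBlo library was below every other library. Bcl2 to Bcl2l11, the ratio of BCL2 to BIM, averaged 1.97 ± 0.11, 2.53 ± 0.476 and 2.26 ± 0.418. CD45RBhi libraries were all above the naive ones in that ratio, and CD45RBlo libraries spanned them.

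**Figure D5:**
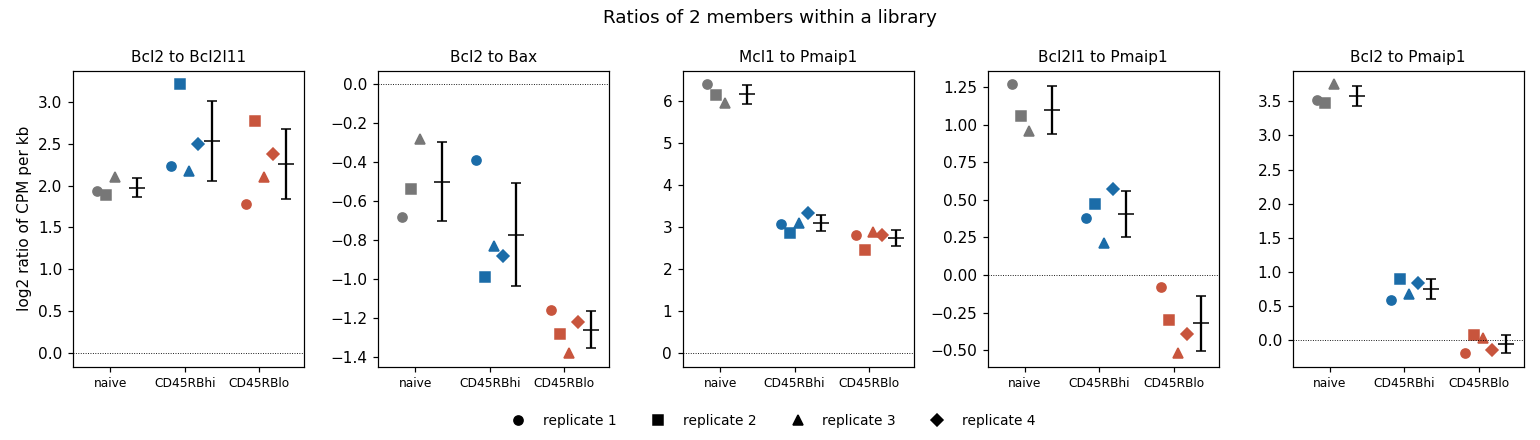
Log2 ratio of 5 pairs of members within each library (level per kilobase of exon), with group mean and SD as bars and a dotted line at 0, on axes of unequal range. Bcl2l1 to Pmaip1 is between 0.21 and 0.57 in CD45RBhi and between -0.52 and -0.08 in CD45RBlo libraries.

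Of 17 other genes of the family or named for binding it, 12 had enough counts to be tested. Of these, 5 rose and 3 fell in CD45RBhi and 5 rose and 2 fell in CD45RBlo cells against naive, where 41.5% and 42.2% of all tested genes were called. Their median log2 difference was 0.09 and 0.03, against -0.01 over all tested genes. None of the 12 was called between the memory groups, with or without the block (Bcl2l14 alone had an unadjusted p below 0.05, 0.0374, in the fit without it, and DESeq2 called none). The pro-survival A1 gene Bcl2a1d rose most, and went from 1.05 ± 0.286 CPM in naive to 17.6 ± 1.83 in CD45RBhi and 17.8 ± 1.07 in CD45RBlo libraries (log2 difference 4.06 and 4.08, adjusted p = 4.46e-09 and 3.97e-09). Bcl2a1b went from 2.12 ± 0.231 CPM to 9.47 ± 0.911 and 9.96 ± 1.18 (2.15 and 2.23, adjusted p = 7.42e-07 and 5.2e-07). These copies match in over 98% of aligned bases, so how reads were divided among them is uncertain. Their sum with Bcl2a1a was 3.35 ± 0.29, 27.3 ± 2.74 and 28.0 ± 2.28 CPM.

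Smaller differences ran in both directions. Bnip2, at 97.5 ± 7.21 CPM in naive libraries, was 124 ± 1.91 in the CD45RBhi and 133 ± 7.45 in the CD45RBlo group (adjusted p = 0.00331 and 0.000575). The mitophagy receptor gene Bnip3l rose by 0.26 and 0.27 on the log2 scale (adjusted p = 0.0112 and 0.01), while its relative Bnip3 fell by 0.84 and 1.20 (adjusted p = 0.0344 and 0.0055). Scaled to library size alone, the difference of Bnip3l was 0.11 and 0.13 (adjusted p = 0.235 and 0.18) and that of Bnip2 in CD45RBhi cells 0.20 (adjusted p = 0.0697). Bnip3l was also just lost without naive replicate 2 in CD45RBhi (0.24, adjusted p = 0.0503) and without CD45RBlo replicate 4 in CD45RBlo cells (0.23, adjusted p = 0.0502). The Bnip3 call in CD45RBhi cells was lost without naive replicate 1, 2 or 3 or CD45RBhi replicate 3 or 4 (log2 difference -0.90 to -0.72, adjusted p 0.0616 to 0.123).

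Bcl2l12 fell by 0.58 and 0.73 on the log2 scale (adjusted p = 0.032 and 0.0106). In CD45RBhi cells that call was lost without naive replicate 1, 2 or 3 or CD45RBhi replicate 1, 3 or 4 (-0.64 to -0.48, adjusted p 0.0521 to 0.125), and in CD45RBlo cells without naive replicate 3 (-0.63, adjusted p = 0.0525). It shares 572 exonic bases with Gm15545 on the opposite strand. Bcl2l14 fell by 1.41 in CD45RBhi cells (adjusted p = 0.00381), and its difference in CD45RBlo cells was -0.68 (adjusted p = 0.104). Bcl2l2, the gene of the pro-survival protein BCL-W, was at 0.0662 CPM in naive libraries, with 1 to 2 counts per library, under the level of 3 counts. It was at 0.552 ± 0.388 and 0.678 ± 0.262 CPM in memory libraries (adjusted p = 0.00944 and 0.00532). The CD45RBhi group overlapped the naive one, since CD45RBhi replicate 1 held 2 counts. The BH3-only genes Bmf (log2 difference -0.50 and -0.23) and Bik (-0.24 and -0.06), together with Bcl2l13 (0.18 and 0.11) and Bnip1 (-0.01 and -0.21), gave no call. Bcl2a1a, Bcl2l10, Bcl2l15, Bok and Hrk had too few counts to test.

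Downstream of the pore, 15 genes of the mitochondrial death steps were tested. In CD45RBhi cells 6 rose and 0 fell, and in CD45RBlo cells 5 rose and 0 fell (41.5% and 42.2% of all tested genes were called), with a median log2 difference of 0.19 and 0.05 against -0.01 over all tested genes. Casp9, the initiator caspase, measured 35.2 ± 2.79 CPM in naive libraries, 49.6 ± 5.53 in CD45RBhi and 50.6 ± 3.30 in CD45RBlo, and rose by 0.49 (adjusted p = 0.00299) and 0.52 (adjusted p = 0.00196) on the log2 scale. Tmbim6, an inhibitor of BAX in the endoplasmic reticulum, rose by 0.61 and 0.63 (adjusted p = 0.00291 and 0.00225), and Mtch2, a mitochondrial receptor of BID, rose by 0.32 in CD45RBhi cells (adjusted p = 0.00212), a call lost when libraries were scaled to size alone (0.17, adjusted p = 0.0594), and its difference in CD45RBlo cells was 0.17 (adjusted p = 0.063).

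None of these 15 was called between the memory groups by edgeR, with or without the block, or among the named ones by DESeq2. At an unadjusted p below 0.05 there were 3 of the 15, among them Mtch2 (log2 difference 0.15, adjusted p = 0.499) and Cycs, which encodes cytochrome c (0.25, adjusted p = 0.532). Vdac3, a channel of the outer membrane, was at 0.17 (adjusted p = 0.604).

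Among 34 genes known to act on BCL2 family genes or proteins, 12 rose and 7 fell in each memory group against naive (41.5% and 42.2% of all tested genes were called), with a median log2 difference of -0.05 in CD45RBhi and 0.05 in CD45RBlo cells. Il2rb, the receptor chain for interleukins 2 and 15, measured 341 ± 33.5 CPM in naive libraries, 1720 ± 263 in CD45RBhi libraries and 1660 ± 262 in CD45RBlo libraries (log2 difference 2.34 and 2.28, adjusted p = 6.67e-08 and 7.34e-08). Foxo1, a forkhead factor, measured 434 ± 4.86, 200 ± 10.5 and 180 ± 10.9 CPM (-1.12 and -1.27, adjusted p = 8e-08 and 2.23e-08). Trp53, which encodes p53, an inducer of Bbc3, Pmaip1 and Bax, measured 279 ± 5.19, 224 ± 12.3 and 188 ± 9.55 CPM, and fell by 0.32 (adjusted p = 0.0031) and 0.57 (adjusted p = 3.47e-05). Its relative Trp73 was read 3 times in all naive libraries and 176 and 212 times in CD45RBhi and CD45RBlo libraries, a ratio of 43.9 (95% interval 14.8 to 215, counting error only) and 55.2 (18.6 to 270) after scaling. Myc, whose product binds the E-box, fell by 0.87 in CD45RBhi (adjusted p = 0.00235) and by 1.60 in CD45RBlo cells (adjusted p = 2.08e-05). Whether any of these regulators acted on the members in these cells was not tested.

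Il7r, the interleukin 7 receptor whose signal raises Bcl2, was the 1 regulator called between the memory groups in the fit without pairing, where Bcl2 was not. It measured 593 ± 37.8 CPM in naive libraries, 1200 ± 45.0 in CD45RBhi libraries and 770 ± 39.9 in CD45RBlo libraries (CD45RBhi against CD45RBlo 0.63, adjusted p = 0.00147). With the block, 5 of 34 regulators were higher in CD45RBhi and 0 lower, where 2.52% of all tested genes were higher and 3.08% lower. They were Il7r (log2 difference 0.64, adjusted p = 6.46e-05), Myc (0.75, adjusted p = 0.000245), Pim2 (0.30, adjusted p = 0.0143), Trp53 (0.25, adjusted p = 0.0251) and Pim1 (0.67, adjusted p = 0.0498). Pim1 and Pim2 were named after their values were seen. In the fit without the block, Myc was at 0.72 (adjusted p = 0.216), and without CD45RBlo replicate 2 at 0.93 (adjusted p = 0.0275).

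The genes nearest to a member over the 11 libraries were those with the smallest root mean square difference of centred log2 CPM. They were sought among 8401 genes with a mean of at least 10 CPM. For Bcl2 they were Stk38l (0.125), Ndufaf4 (0.131) and Zbtb8a (0.132). For Bcl2l1 they were Eomes (0.178), Tyms (0.181) and S100a11 (0.188), all low in naive and high in both memory groups, such as Eomes at 42.1, 164 and 158 CPM. For Bcl2l11 they were Rplp1 (0.146), Trim12c (0.152) and Pdcd4 (0.152), with Pdcd4 at 201, 135 and 134 CPM. All 11 libraries entered each value, so it covers differences between replicates as well as between groups. By this measure genes that vary little lie near each other, so a small value need not mean that 2 genes vary together. Such a link was not tested.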

How the data were processed

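The deposited file is a table of raw counts per gene for 11 RNA-seq libraries, which the authors made and which was used as deposited. The submitters' processing notes name SAMtools, featureCounts, DESeq2 and the builds mm10 and GRCm38. The aligner, annotation release, strand setting and tool versions are not given there or in the labels. Gene positions come from the GENCODE M21 annotation of GRCm38 and exonic lengths from the same models.

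Genes were kept with filterByExpr (minimum count 10), leaving 13735 of 52636. One quasi-likelihood model over the 3 groups was fitted to all 11 libraries with edgeR 4.0.16 (R 4.3.3) after TMM scaling, with p-values adjusted over all tested genes and called below 0.05; the biological coefficient of variation was 18.7%. The script was tested on simulated data. Levels are TMM-scaled CPM as mean ± SD, and differences carry the SE of the fit. Counting error and floors (3 counts) cover counting only.

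The memory libraries share replicate numbers 1 to 4. For each number, the deviations of the CD45RBhi and the CD45RBlo library from its group's mean had a correlation across genes of r = 0.425, 0.452, 0.208 and 0.191, so the numbers were taken as a pairing, on this evidence alone since no label ties them; a model with replicate blocks was run on these 8 libraries (12637 genes, coefficient of variation 9.88%). Naive libraries with the same number did not pair with memory ones. In 15 pairs of libraries of the same group, 0 were identical, and the smallest chi-square per degree of freedom was 10.2.

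Alternatives were RLE scaling, scaling to library size, no filter, DESeq2 1.42.0, a fit of only the groups compared, the replicate block, and leaving out each library. Named genes were the 10 members, every tested other family gene, the 4 genes of smallest p in each further list and comparison, and the 3 nearest genes to Bcl2, Bcl2l1 and Bcl2l11. Members, lists and rules were chosen with earlier results of these data known. Some genes that the rule names are not reported here. March5 was matched by its gene identifier.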

Additional observations from a re-analysis of the deposited data

How the results depend on the processing

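Bcl2l1 and Pmaip1 were called higher in both memory groups against naive under every alternative run. The count of called members against naive in CD45RBhi cells was 4 with scaling to library size (Mcl1, -0.32, and Bcl2l11, -0.61, were added) and 4 with the replicate block over all 11 libraries (Bax and Bad were added), and 2 to 4 when single libraries were left out. In CD45RBlo cells it was 4 with scaling to library size (Bax was lost, 0.29, adjusted p = 0.144) and 2 to 5 when single libraries were left out. Between the memory groups it was 2 with DESeq2, 3 with the replicate block and 0 without any 1 library; with the block it was 1 to 3 when single pairs were left out. Over all genes, 17 were called between the memory groups, 146 with DESeq2, 4 in a fit of these groups only, 707 with the block, 6 to 15 without single libraries, and 167 to 667 with the block without single pairs (344 without pair 1 and 300 without pair 4). The block changed no call between the memory groups for members other than Bcl2, Bcl2l1 and Pmaip1. Where a call was lost, the cause was not tested.

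Scaling to library size moved the median log2 difference of all genes to -0.16 in CD45RBhi and -0.14 in CD45RBlo cells, and the split of calls from 3064 higher and 2630 lower to 2301 and 3724 in CD45RBhi, and from 3072 and 2722 to 2356 and 3609 in CD45RBlo cells. The sign then turned, none of them called, for Bcl2 (-0.10) and Bid (-0.10) in CD45RBhi and for Bid (-0.01), Bbc3 (-0.10) and Bcl2l13 (-0.02) in CD45RBlo cells. Bnip1 in CD45RBhi was at 0.00 with no filter and 0.01 with the block over all libraries. With both replicate 2 memory libraries left out, Bid in CD45RBhi was at -0.09, Bmf and Bik in CD45RBlo at 0.11 and 0.08, and Bcl2a1b and Bcl2a1d between the memory groups at 0.05 and 0.06. Leaving out single libraries also turned the sign of differences that were never called. Against naive these ranged from -0.05 to 0.19 for Bcl2, -0.07 to 0.11 for Bid and -0.14 to 0.05 for Bnip1 in CD45RBhi. In CD45RBlo they ranged from -0.04 to 0.15 for Bbc3, -0.26 to 0.10 for Bik and -0.62 to 0.19 for Bmf. Between the memory groups the ranges were -0.02 to 0.22 for Bad, -0.18 to 0.04 for Bax, -0.20 to 0.01 for Bid, -0.15 to 0.03 for Mcl1, -0.08 to 0.03 for Bcl2a1d, 0.00 to 0.23 for Bcl2l12, -0.78 to 0.07 for Bcl2l2, -0.39 to 0.02 for Bik, -0.63 to 0.12 for Bmf and -0.04 to 0.02 for Bnip3l. Depth limits Bak1 and Bcl2l2, which had at most 28 and 24 counts in a library.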
